A study of Mus musculus with 13 samples.

Results

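The cholesterol synthesis enzymes and regulators described here are 10 genes, Hmgcs1, Fdps, Fdft1, Sqle, Lss, Cyp51, Msmo1, Sc5d, Srebf2 and Insig1, out of 22180 genes measured. They are named members of the sterol pathway, taken as the probe sets listed with that gene symbol alone, and each of the 10 had 1 such probe set on the array. Expression was measured on 13 Affymetrix Mouse Gene 2.0 ST arrays in CD205+CD8+ dendritic cells, the cross-presenting type known as cDC1, sorted from mouse spleen into cells with high and with low surface CD103. CD103 is the integrin chain encoded by Itgae. The study asked how these cells respond to muramyl dipeptide (MDP), a piece of the bacterial cell wall sensed by the receptor NOD2.

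The groups were CD103 high cells from MDP mice (3 arrays), CD103 low cells from MDP mice (3 arrays), CD103 high cells from PBS mice (3 arrays) and CD103 low cells from PBS mice (4 arrays). MDP mice had received 50 ug of MDP in 100 ul of PBS into the peritoneum, PBS mice 100 ul of PBS alone, and spleens were taken 24 hours after the injection. In all 4 groups the mice were C57Bl/6 littermates, labelled male and 6 weeks old, that had carried a subcutaneous B16 melanoma secreting Flt3L, started from 5e6 cells, for 5 days before the injection. Flt3L is a growth factor that expands dendritic cells, so that no group shows the cells of a mouse without tumour and added Flt3L. Cells were sorted by CD103 after the treatment, so that the high and low gates need not hold the same cells in MDP and PBS mice. Nothing in the labels says whether every array is a separate mouse, and p-values therefore measure the spread between these arrays, which may be partly technical.

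Values are log2 probe set values from RMA, in which a difference of 1 is a doubling, and array medians lay between 5.00 and 5.13. A level of one probe set cannot be set against that of another, so the levels below are compared between groups within a gene. Of 14 cDC1 markers 13 were measured, their mean per array was 10.9 to 11.3, and 0 of the 13 lay within the range of olfactory receptor genes, a measure of background whose 95th percentile was 5.11. Itgae averaged 11.35 in MDP CD103 high, 10.13 in MDP CD103 low, 10.15 in PBS CD103 high and 7.92 in PBS CD103 low cells, so that the low gate in MDP mice was close to the high gate in PBS mice in Itgae. Against the label, transcripts of the sex chromosomes split the arrays: Xist was at 10.98 to 11.21 in 7 arrays and at 4.47 to 6.69 in 6, while Y-linked transcripts averaged 3.50 to 4.39 and 7.85 to 8.21 in these same sets. Each group held arrays of both kinds. All 10 cholesterol genes lay above the olfactory range.

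Cells make cholesterol from acetyl-CoA through the mevalonate pathway, which leads over farnesyl diphosphate and squalene to lanosterol and from there to cholesterol. The transcription factor SREBP2, encoded by Srebf2, switches on the genes of nearly every step when sterols in the endoplasmic reticulum run low, and INSIG proteins hold its precursor there when sterols suffice. In myeloid cells the pathway is known to be reset by pattern-recognition and interferon signals, and dividing cells draw on it for membrane.

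Promoter windows from RefSeq (build GRCm38.p6, 250 bases before to 50 after the start of the gene) were found for 7 of the 10 genes, all except Sqle, Fdft1 and Fdps. Each was searched on both strands for TCACNCCAC, the core of the sterol regulatory element that SREBPs bind, for CCAAT, bound by the SREBP partner NF-Y, and for GGGCGG, bound by the partner Sp1. The sterol core was found in 1 of the 7 windows, against 1.24% of 32851 mouse windows of the same length. CCAAT was present in 7 of 7, against 37.4% of all windows, and GGGCGG in 7 of 7, against 35.7%. Such a match is a description of letters and does not show that a factor binds there. The window of Hmgcs1 is printed because it is the one with the sterol core, and that of Msmo1 because Msmo1 is the gene that passed the test below, a choice made after its values were seen. Hmgcs1 starts on the plus strand of chr13:119690101-119690400 and Msmo1 on the minus strand of chr8:64733529-64733828, and capitals mark the sterol core and CCAAT or its reverse complement ATTGG, which do not overlap.
Hmgcs1: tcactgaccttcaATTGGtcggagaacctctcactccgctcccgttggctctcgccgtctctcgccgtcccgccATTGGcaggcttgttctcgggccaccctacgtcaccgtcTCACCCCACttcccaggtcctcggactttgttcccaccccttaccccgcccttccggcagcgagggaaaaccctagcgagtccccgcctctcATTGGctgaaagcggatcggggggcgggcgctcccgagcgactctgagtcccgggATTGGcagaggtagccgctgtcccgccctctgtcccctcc
Msmo1: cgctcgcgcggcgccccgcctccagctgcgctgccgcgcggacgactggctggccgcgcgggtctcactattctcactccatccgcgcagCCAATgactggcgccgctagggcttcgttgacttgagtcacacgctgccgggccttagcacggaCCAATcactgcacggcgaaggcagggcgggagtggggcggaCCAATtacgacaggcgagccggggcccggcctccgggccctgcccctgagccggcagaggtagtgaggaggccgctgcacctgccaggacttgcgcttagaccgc

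In the Hmgcs1 window the sterol core lay 137 to 129 bases before the start, and 4 copies of ATTGG stood around it, the nearest upstream one at 176 to 172 bases before the start. The Msmo1 window held no TCACNCCAC but 3 copies of CCAAT, at 160 to 156, 96 to 92 and 55 to 51 bases before the start. Each of the other 5 windows, of Lss, Cyp51, Sc5d, Srebf2 and Insig1, held 1 CCAAT or ATTGG.

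The first question was how these genes differed between MDP and PBS mice in CD103 high cells. Msmo1, a methylsterol monooxygenase that acts downstream of Cyp51, fell in MDP CD103 high cells to 0.73 times its level in PBS CD103 high cells. It was the 1 of the 10 cholesterol genes past the threshold, an adjusted p of 0.05 by limma with Benjamini-Hochberg adjustment over all genes, in a comparison in which 1.82% of all genes passed and 0.397% passed as lower. The other 9 genes did not pass, and 3 of the 10, Msmo1, Fdft1 and Sqle, had an unadjusted p under 0.05, against 13.3% of all genes. Between these groups 8 of the 10 lay below 0, with a median difference of -0.07, while 53.7% of all genes lay below 0 with a median of -0.01.

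Msmo1 stood at 6.53, 6.58 and 6.76 in MDP CD103 high cells, against 7.01, 7.05 and 7.17 in PBS CD103 high cells. In CD103 low cells it stood at 7.12, 6.91 and 6.96 in MDP mice, against 6.96, 6.95, 7.11 and 6.9998 in PBS mice. All 3 MDP CD103 high arrays were thus below each of the other 10 arrays, and the other 3 groups overlapped one another. The share of all genes with this pattern was not counted, so it is not shown to be particular to Msmo1. The MDP CD103 high arrays all lay below the PBS CD103 high arrays for 2228 of 22180 genes. They all lay below the MDP CD103 low arrays for 1759 of 22180 genes. The log2 difference between MDP and PBS was -0.45 ± 0.09 (SE, n = 3 each) in CD103 high cells, with a 95% interval of -0.64 to -0.27 and a limma adjusted p of 0.0187. In sorted cells in bulk, fewer cells of a kind that expresses a gene and less RNA per cell cannot be told apart.

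The threshold was passed narrowly. The Msmo1 adjusted p from limma was 0.0572 when all probe sets were tested, 0.0753 when only the 6 arrays compared were fitted, and 0.0903, 0.0785, 0.0714 and 0.101 without MDP CD103 high replicate 2 or 3 or PBS CD103 high replicate 5 or 6. With Xist state as a covariate the difference was -0.45 (adjusted p 0.0261); it was -0.36 (adjusted p 0.372) among arrays with high Xist alone and -0.64 (adjusted p 0.678) in the 1 array against 1 with low Xist. These last fits called 0 of 22180 genes, so that the missing call in them says nothing about Msmo1. In all, 8 of 25 alternatives lost the call, these 2 among them.

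Cell cycle genes and maturation genes moved between the same groups. The mean of 30 measured cell cycle genes per array was 8.97 to 9.16 in MDP CD103 high cells, against 8.22 to 8.59 in PBS CD103 high cells, with 30 of 30 genes above 0 and 21 past the threshold as higher. Of all genes 1.42% passed as higher and 0.397% as lower. The mean of 26 measured genes of CCR7-type mature dendritic cells was 7.13 to 7.33 in MDP CD103 high cells, against 7.82 to 8.22 in PBS CD103 high cells, with 26 of 26 below 0 and 5 (Ccr7, Ccl5, Relb, Cd80 and Birc3) past the threshold as lower. Because the MDP CD103 high arrays stand apart, Msmo1 was set against these means over the 10 arrays of the other 3 groups, where Pearson's r was -0.80 (Spearman's rho -0.88) with the cell cycle mean and 0.51 (rho 0.53) with the maturation mean. These are descriptions over arrays of shared groups, and the part of dividing or mature cells in the Msmo1 difference was not tested.

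**Figure D1:**
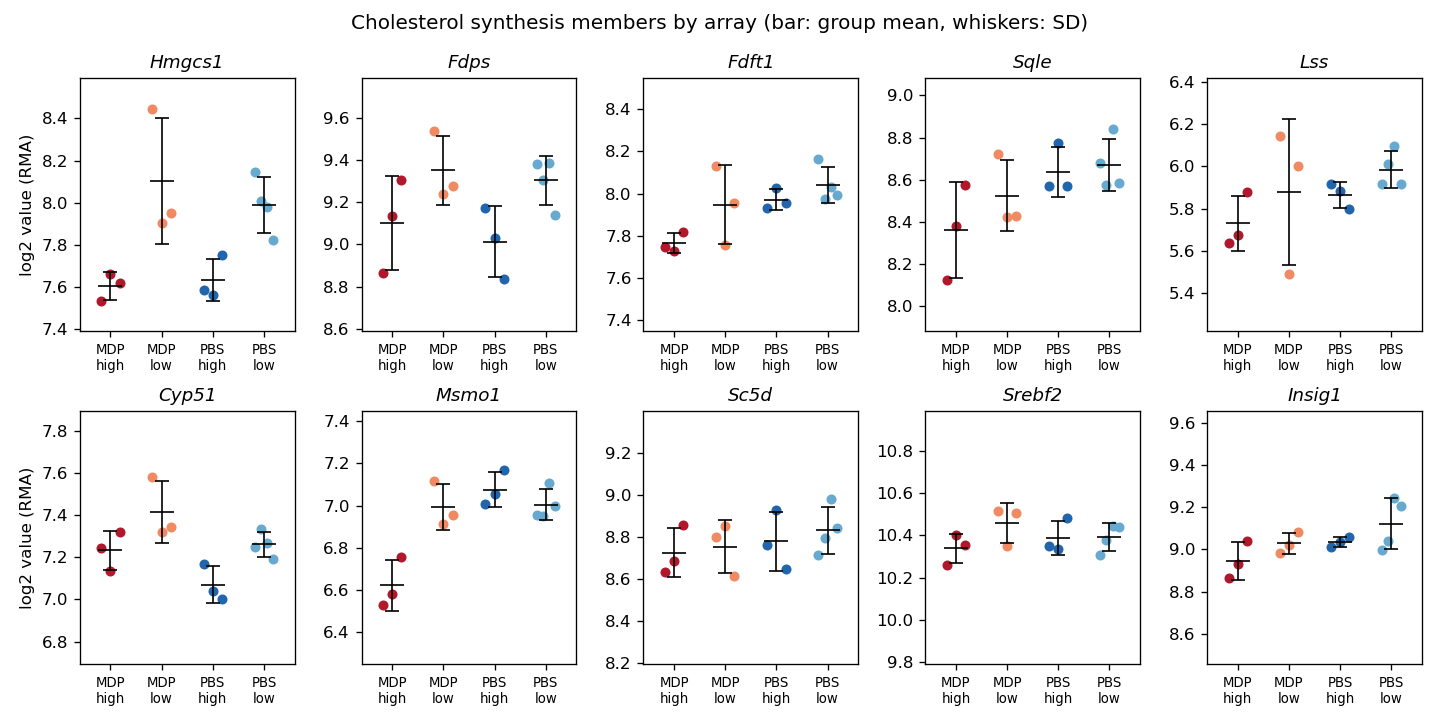
Log2 RMA values of the 10 cholesterol genes by array (points), with group means (bars) and SD (whiskers), for MDP CD103 high, MDP CD103 low, PBS CD103 high (3 arrays each) and PBS CD103 low (4 arrays). Msmo1 is lowest in the MDP CD103 high arrays, at 6.53 to 6.76, and Hmgcs1 is lower in all 6 CD103 high arrays than in all 7 CD103 low arrays.

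Upstream of Msmo1, the squalene steps lay on the same side of 0 without passing the test. Fdft1, squalene synthase and the first enzyme committed to sterols, stood at 7.75, 7.73 and 7.82 in MDP CD103 high cells, against 7.93, 8.03 and 7.95 in PBS CD103 high cells. Together with Msmo1 it made 2 of 10 genes whose MDP CD103 high arrays all lay below the PBS CD103 high arrays, which held for 2228 of all 22180 genes. In either direction the arrays of 19.0% of all genes did not overlap. Its difference was -0.21 ± 0.09 (SE) with a limma adjusted p of 0.351.

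Sqle, the squalene epoxidase that forms the second control point of the pathway, stood at 8.12, 8.38 and 8.58 in MDP CD103 high cells, against 8.57, 8.77 and 8.57 in PBS CD103 high cells. The highest MDP array lay above the lowest PBS array, and the difference was -0.28 ± 0.12 (SE, limma adjusted p 0.354). Lss, lanosterol synthase, differed by -0.13 ± 0.14, with a 95% interval of -0.43 to 0.16.

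Cyp51, the lanosterol demethylase upstream of Msmo1, lay on the other side of 0. It stood at 7.24, 7.14 and 7.32 in MDP CD103 high cells, against 7.17, 7.04 and 7.003 in PBS CD103 high cells, a difference of 0.16 ± 0.09 (SE) with a limma adjusted p of 0.463 and overlapping groups. Farnesyl diphosphate synthase, Fdps, differed by 0.09 ± 0.13 (interval -0.18 to 0.37). Hmgcs1, the synthase that makes HMG-CoA at the entry of the pathway, differed by -0.03 ± 0.13 (interval -0.31 to 0.25).

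The late desaturase Sc5d differed by -0.05 ± 0.10 between MDP and PBS CD103 high cells. Among the regulators, Srebf2 differed by -0.05 ± 0.08 and Insig1, which retains the SREBP2 precursor and is itself a target of SREBP2, by -0.09 ± 0.08. For these 3 genes the widest interval was that of Sc5d, -0.27 to 0.16.

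In CD103 low cells the same comparison gave no call among the 10 genes, and 0 of the 10 had an unadjusted p under 0.05 in limma, against 6.06% of all genes, of which 1 (0.00451%) passed the adjusted threshold. Differences between MDP and PBS ran from -0.14 (Sqle) to 0.15 (Cyp51), 6 of the 10 lay below 0, and the median was -0.04 against 0.00 for all genes, 48.5% of which lay below 0. For Msmo1 the difference was -0.01 ± 0.08 (interval -0.18 to 0.17). The MDP and PBS CD103 low arrays overlapped for each of the 10 genes, while those of 5.50% of all genes did not.

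Whether MDP acted differently in the subsets was tested by the interaction, the MDP minus PBS difference in CD103 high cells minus that in CD103 low cells. For Msmo1 it was -0.45 ± 0.12 (SE), with a 95% interval of -0.70 to -0.19 and a limma adjusted p of 0.180. No cholesterol gene passed, 1 of the 10 (Msmo1) had an unadjusted p under 0.05, and of all genes 0.0721% passed and 9.63% had such an unadjusted p. The Msmo1 difference between MDP and PBS was thus not shown to differ between the subsets. Averaged over the subsets, Msmo1 differed by -0.23 ± 0.06 between MDP and PBS (limma adjusted p 0.131), 0 of the 10 genes passed against 0.185% of all genes, and 4 had an unadjusted p under 0.05 (11.8% of all genes), Msmo1, Cyp51, Sqle and Fdft1.

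**Figure D2:**
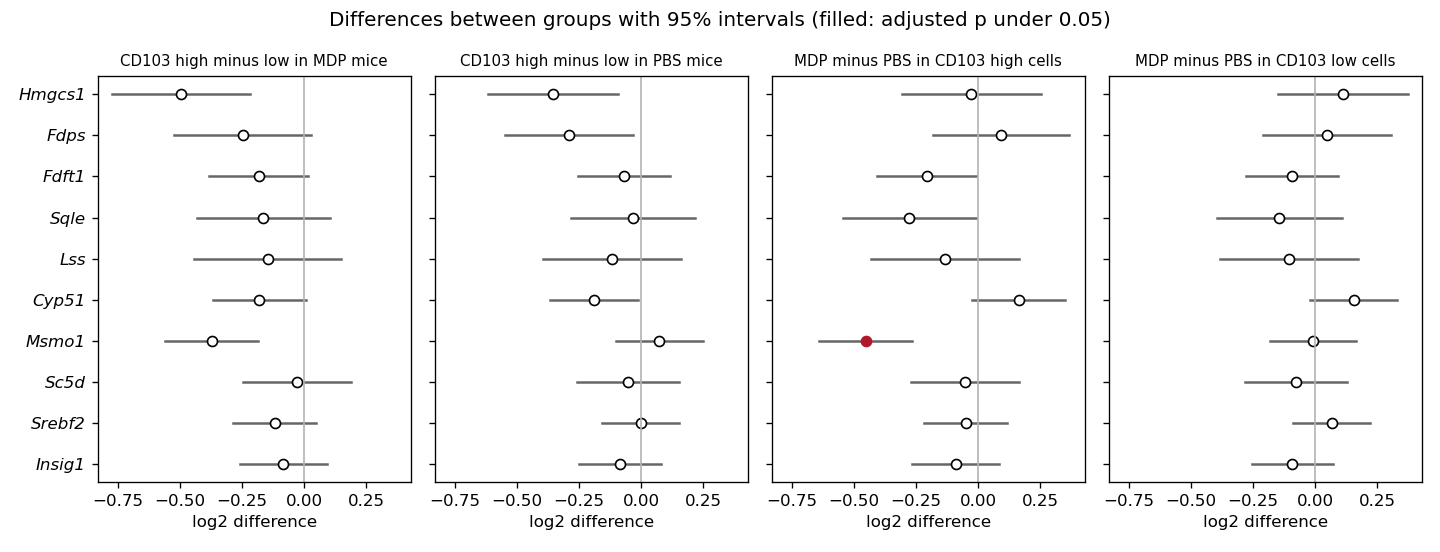
Log2 differences of the 10 cholesterol genes with 95% intervals from limma in the 4 comparisons within a treatment or a subset, with a filled point for an adjusted p under 0.05. Msmo1 between MDP and PBS CD103 high cells, at -0.45, is the filled point, and all 10 points lie below 0 for CD103 high minus low in MDP mice.

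The second question was how the genes differed between CD103 high and CD103 low cells. Here the widest difference was at the entry of the pathway. Hmgcs1 was 0.71 times as high in CD103 high as in CD103 low cells of MDP mice and 0.78 times as high in PBS mice. Of the 10 genes, all but Msmo1 lay below 0 in both treatments, Fdps and Cyp51 among them. None of these differences passed the test over all genes.

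Hmgcs1 stood at 7.53, 7.66 and 7.62 in MDP CD103 high cells, against 8.44, 7.91 and 7.95 in MDP CD103 low cells. In PBS mice it stood at 7.59, 7.56 and 7.75 in CD103 high cells, against 8.15, 8.01, 7.98 and 7.82 in CD103 low cells. All 6 CD103 high arrays lay below all 7 CD103 low arrays, which held for 0.140% of all genes and for 1 of the 10 cholesterol genes. The difference was -0.50 ± 0.13 in MDP mice (SE, limma adjusted p 0.140) and -0.36 ± 0.12 in PBS mice (adjusted p 0.435).

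Averaged over the treatments, Hmgcs1 differed by -0.43 ± 0.09 with a 95% interval of -0.62 to -0.24 and a limma adjusted p of 0.0987, at rank 75 of 22180 genes by p. The adjusted p became 0.0459 when genes within the olfactory range were left out and 0.0402 with a variance trend and robust fit, while without MDP CD103 low replicate 1, the array at 8.44, the average was -0.34 with an adjusted p of 0.0869. In MDP mice the difference without that array was -0.32. The effects in the 2 treatments were not shown to differ, with an interaction of -0.14 ± 0.18 and a limma adjusted p of 0.859.

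Fdps stood at 8.87, 9.14 and 9.31 in MDP CD103 high cells, against 9.54, 9.24 and 9.27 in MDP CD103 low cells. In PBS mice it stood at 9.17, 9.03 and 8.84 in CD103 high cells, against 9.38, 9.31, 9.39 and 9.14 in CD103 low cells. The groups overlapped in both treatments, with an average difference of -0.27 ± 0.09 and a limma adjusted p of 0.345.

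For Cyp51 the CD103 high arrays of PBS mice, at 7.17, 7.04 and 7.003, all lay below the CD103 low arrays, at 7.25, 7.33, 7.27 and 7.19. The groups of MDP mice, at 7.24, 7.14 and 7.32 in CD103 high against 7.58, 7.32 and 7.34 in CD103 low cells, met at 7.32. The difference was -0.18 ± 0.09 in MDP mice and -0.19 ± 0.08 in PBS mice, and the average of -0.19 ± 0.06 had a limma adjusted p of 0.339.

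For Msmo1 in MDP mice, the CD103 high and CD103 low arrays listed above did not overlap, and the difference was -0.37 ± 0.09 with a limma adjusted p of 0.0910, which became 0.0371 when genes within the olfactory range were left out. In PBS mice the difference was 0.07 ± 0.08 (interval -0.10 to 0.25). The test of that change is the interaction given above, which did not pass.

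In CD103 low cells Fdft1 stood at 8.13, 7.75 and 7.95 in MDP mice, against 8.17, 7.98, 8.03 and 7.99 in PBS mice. Sqle stood there at 8.72, 8.42 and 8.43 in MDP mice, against 8.68, 8.58, 8.84 and 8.58 in PBS mice. Fdft1, with a difference between CD103 high and low cells of -0.18 ± 0.09 in MDP mice and -0.07 ± 0.09 in PBS mice, and Sqle, at -0.17 ± 0.12 and -0.03 ± 0.12, had overlapping subsets in both treatments. Lss differed by -0.15 ± 0.14 in MDP mice and -0.12 ± 0.13 in PBS mice, and its MDP CD103 low arrays were wide apart, at 6.15, 5.49 and 6.00. Sc5d differed by -0.03 ± 0.10 and -0.05 ± 0.09. Across all 13 arrays Sc5d stayed between 8.61 and 8.98, Insig1 between 8.86 and 9.25, and Srebf2 between 10.26 and 10.52, the narrowest range of the 10 genes at 0.25. Srebf2, the gene of the pathway's transcription factor, differed by -0.12 ± 0.08 and 0.00 ± 0.07, and Insig1 by -0.08 ± 0.08 and -0.09 ± 0.08.

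Over the 10 genes, all 10 lay below 0 for CD103 high minus low in MDP mice, where 54.3% of all genes did, with a median of -0.17 against -0.01 for all genes. In PBS mice 9 of 10 lay below 0, against 51.1% of all genes, with a median of -0.08 against 0.00. In each treatment 2 of the 10 genes had CD103 high arrays all below the CD103 low arrays, Hmgcs1 and Msmo1 in MDP mice, against 7.93% of all genes, and Hmgcs1 and Cyp51 in PBS mice, against 4.05%. By limma 0 of the 10 passed in MDP mice, where 0.523% of all genes did, and 0 in PBS mice, where 0.0766% did. An unadjusted p under 0.05 was found for 2 of the 10 in MDP mice (Msmo1 and Hmgcs1) and for 3 in PBS mice (Hmgcs1, Fdps and Cyp51), against 10.2% and 8.52% of all genes.

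In the average over treatments all 10 lay below 0 with a median of -0.13, against 53.6% of all genes and a median of -0.01. By limma 0 passed (0.126% of all genes) and 4 had an unadjusted p under 0.05 (9.56% of all genes), Hmgcs1, Cyp51, Fdps and Msmo1. MDP CD103 low replicate 1 weighs on this count as well: it was the highest of all 13 arrays for 5 of the 10 genes. Without it the median was -0.09 in MDP mice and -0.09 in the average, and 10 of 10 genes lay below 0 in each. That array also had the highest maturation mean, 8.83, against 7.13 to 8.22 on the other 12 arrays.

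The 10 genes were also set against one another across arrays. Among the 45 pairs of the 10 genes, Pearson's r over the 13 arrays had a median of 0.48 and ran from -0.05 to 0.79, with 43 pairs above 0. After the group means were removed the median was 0.49, from -0.36 to 0.78, with 38 pairs above 0. The same was not counted for pairs of all genes, so these counts do not show a trait of the 10 genes. Nor were they taken without MDP CD103 low replicate 1, the highest array for 5 of the 10 genes. The values of 1 array share its RNA, its amplification and its normalisation, whose part was not tested. The lowest group mean was that of MDP CD103 high cells for 8 of the 10 genes and that of PBS CD103 high cells for Cyp51 and Fdps. Group means of a gene spread least for Sc5d, over 0.11, and most for Hmgcs1, over 0.50.

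Hmgcs1 was set against the same list means. Over the 10 arrays outside MDP CD103 high, Hmgcs1 had a Pearson's r of -0.05 (Spearman's rho 0.28) with the cell cycle mean and of 0.48 (rho 0.13) with the maturation mean. In PBS mice, where Hmgcs1 was low in CD103 high cells, the cell cycle mean was 8.22 to 8.59 in CD103 high and 8.43 to 8.67 in CD103 low cells, and the maturation mean 7.82 to 8.22 in CD103 high and 7.63 to 7.91 in CD103 low cells. In MDP mice the cell cycle mean was 8.97 to 9.16 in CD103 high and 8.19 to 8.62 in CD103 low cells, and the maturation mean 7.13 to 7.33 in CD103 high and 7.75 to 8.83 in CD103 low cells. The part of dividing or mature cells in the Hmgcs1 difference was not tested.

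**Figure D3:**
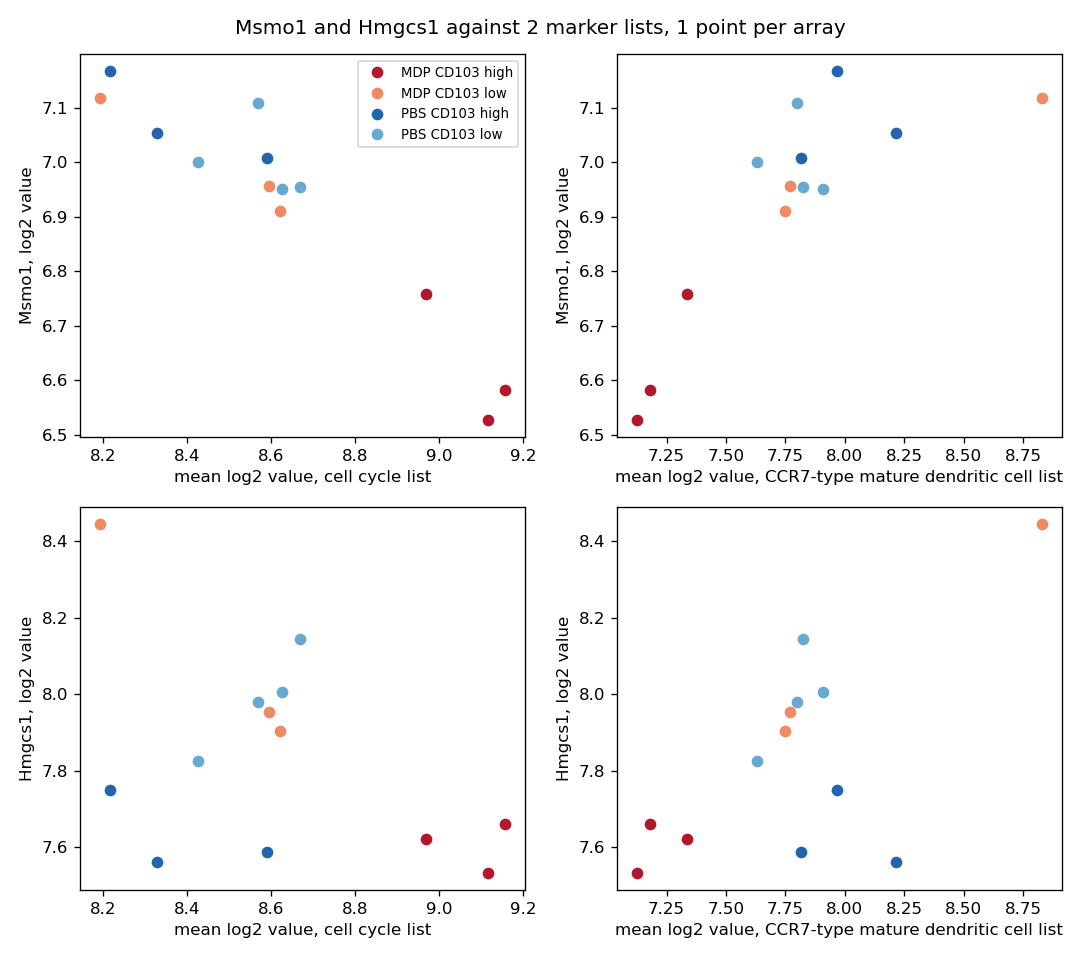
Msmo1 (upper) and Hmgcs1 (lower) log2 values on each of the 13 arrays against the mean log2 value of 30 cell cycle genes (left) and of 26 genes of CCR7-type mature dendritic cells (right), coloured by group. The 3 MDP CD103 high arrays stand apart at the low Msmo1 end, and the Hmgcs1 values of the 6 CD103 high arrays lie under those of the 7 CD103 low arrays.

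The genes whose pattern was most like the mean of the 10, centred per gene, were Atf6b, Inf2, Tmem134, Apobec1 and Flcn, with Pearson's r of 0.89 to 0.91 over the 13 arrays. They are the 5 highest of all genes outside the 10 and were picked for that. For Msmo1 the most similar gene was Nsa2 (r 0.91) and for Hmgcs1 it was Ift57 (r 0.90). For the other 8 the highest r was 0.87 to 0.92, and in no case was the most similar gene another of the 10.

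The rest of the synthesis pathway was described by a wider list. Of 15 further enzyme genes listed, 11 were measured, and the others were not analysed here. For CD103 high minus low, 6 of the 11 lay below 0 in MDP mice (median -0.04) and 6 in PBS mice (median -0.02), with 0 past the threshold in each, while 1 and 3 of the 11 had an unadjusted p under 0.05. Of all genes 54.3% lay below 0 in MDP mice, 0.523% passed and 10.2% had such an unadjusted p. In PBS mice these shares were 51.1%, 0.0766% and 8.52%.

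Mvd, the mevalonate diphosphate decarboxylase between Hmgcs1 and Fdps, came closest among them in MDP mice and in the average over treatments. In PBS mice the smallest limma adjusted p was 0.299, for Lbr, a gene described below. Mvd stood at 7.60, 7.55 and 7.77 in MDP CD103 high cells, against 8.13, 7.94 and 7.90 in MDP CD103 low cells. In PBS mice it stood at 7.50, 7.71 and 7.50 in CD103 high cells, against 7.81, 7.78, 7.96 and 7.80 in CD103 low cells. As for Hmgcs1, all 6 CD103 high arrays lay below all 7 CD103 low arrays, the nearest ones at 7.77 and 7.78. This held for 0.140% of all genes. The average difference was -0.31 ± 0.06 with a limma adjusted p of 0.103, and 0.0425 when genes within the olfactory range were left out.

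Lbr, a sterol reductase of the nuclear envelope that acts after Cyp51 and also anchors chromatin, was the 1 of the 11 that passed between MDP and PBS CD103 high cells, where 1.82% of all genes passed. It stood at 8.22, 8.15 and 8.08 in MDP CD103 high cells, against 7.79, 7.68 and 7.81 in PBS CD103 high cells. The difference was 0.39 ± 0.09 with a limma adjusted p of 0.0360. Lbr and Msmo1, adjacent steps after lanosterol, thus lay on opposite sides of 0 in the same cells. Of 25 alternatives 13 lost the Lbr call, against 8 for Msmo1, among them the fits without any 1 of the 6 CD103 high arrays (adjusted p 0.0569 to 0.151) and without PBS CD103 low replicate 1, 3 or 4 (0.0507 to 0.0555). In CD103 low cells Lbr differed by -0.02 ± 0.08.

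**Figure D4:**
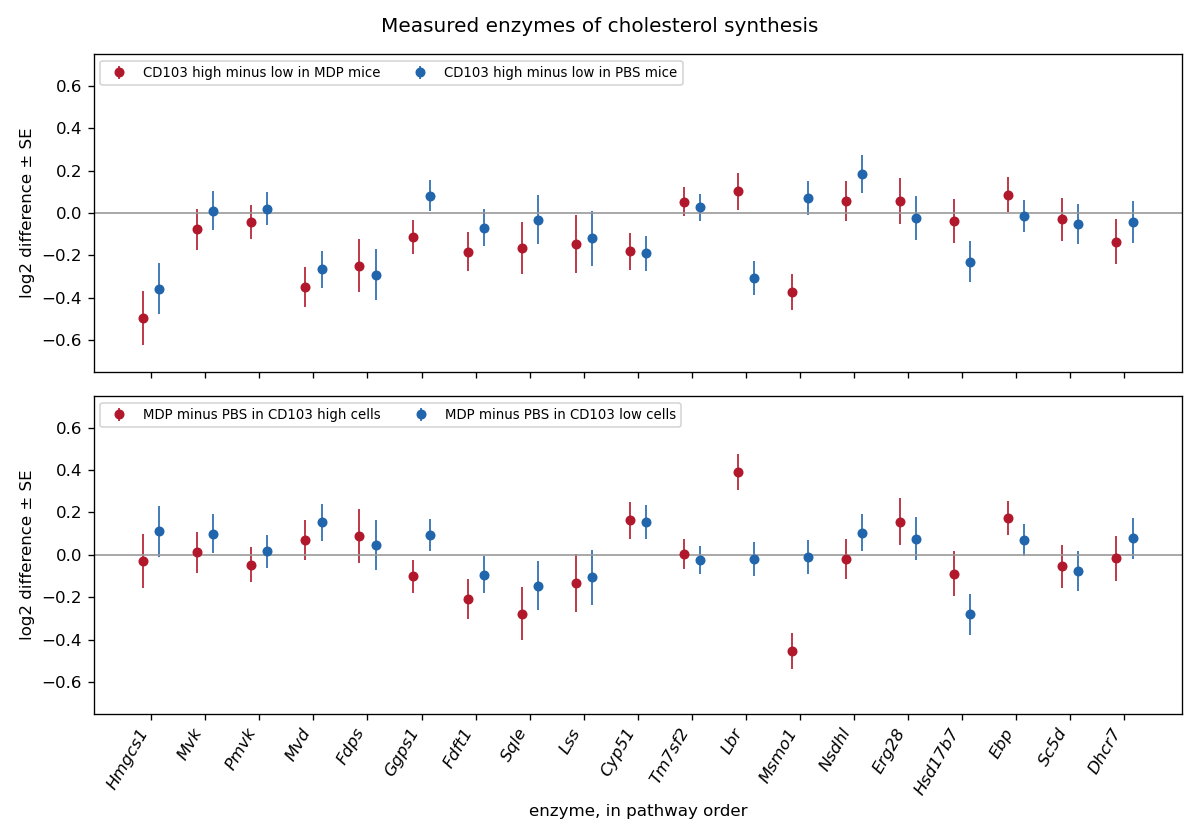
Log2 differences ± SE from limma for the 19 measured genes of cholesterol synthesis in pathway order, for CD103 high minus low cells (upper, MDP and PBS mice) and for MDP minus PBS (lower, CD103 high and CD103 low cells). Hmgcs1 and Mvd lie low in both treatments in the upper plot, and Msmo1 at -0.45 and Lbr at 0.39 stand out in the lower plot for CD103 high cells.

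Regulators of SREBP processing were measured for 8 of 10 listed genes, and 0 passed in any comparison. Between MDP and PBS CD103 high cells their median was -0.08, 0 had an unadjusted p under 0.05 (13.3% of all genes), and the smallest adjusted p by limma was 0.524, for the SREBP protease gene Mbtps1. Of 12 genes of sterol uptake and transport 10 were measured, and 0 passed in any comparison by limma. For CD103 high minus low in MDP mice 3 of these 10 had an unadjusted p under 0.05 (10.2% of all genes), and the smallest adjusted p by limma was 0.300, for the oxysterol-binding protein gene Osbp.

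Genes of sterol efflux, LXR response and storage, which run opposite to synthesis when sterols are plentiful, were measured for 10 of 12, 4 of them within the olfactory range. The storage gene Soat1 was not among the 10. Between MDP and PBS CD103 high cells 8 of the 10 lay below 0 with a median of -0.16, 0 passed and 3 had an unadjusted p under 0.05, the smallest adjusted p being 0.149 by limma for the sterol hydroxylase gene Cyp27a1. Of all genes 53.7% lay below 0 there, 1.82% passed and 13.3% had such an unadjusted p. For CD103 high minus low in PBS mice 1 of the 10 lay below 0, with a median of 0.12, and 0 passed. In MDP mice 6 of the 10 lay below 0, with a median of -0.07, and 0 passed. Of all genes 51.1% lay below 0 in PBS mice and 54.3% in MDP mice, while 0.0766% and 0.523% passed. Between MDP and PBS CD103 high cells 8 of 11 measured fatty acid synthesis genes lay above 0 with a median of 0.11. Of these Fads2, a desaturase of polyunsaturated fatty acids, was the 1 that passed, against 1.82% of all genes. It stood at 8.09, 8.30 and 8.20 in MDP CD103 high cells, against 7.79, 7.38 and 7.63 in PBS CD103 high cells. The difference was 0.59 ± 0.13 with a limma adjusted p of 0.0318. Of 25 alternatives 9 lost the call. The limma adjusted p was 0.0705 to 0.133 without MDP CD103 high replicate 2, 3 or 4 or PBS CD103 high replicate 5 or 6. The PBS CD103 high arrays were the lowest of the 13 for both Lbr and Fads2, a pattern not counted over all genes. Neither gene passed in the interaction, where 0.0721% of all genes did. Its limma adjusted p was 0.225 for Lbr and 0.276 for Fads2. Their differences between MDP and PBS were thus not shown to differ between the subsets.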

How the data were processed

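The 13 deposited columns hold log2 probe set values. The submitters' processing notes name RMA and Affymetrix Expression Console, without versions. No build for the array's probe sets is named in the sources used here. RNA was amplified before hybridisation, per the labels' protocols. RMA makes array distributions alike, so a change shared by most genes is removed. Of 41345 probe sets 23521 had 1 gene symbol, 1814 had several and 16010 were not listed; the highest-mean probe set per gene gave 22180 genes. No pair of arrays was identical, and arrays correlated at 0.976 to 0.991.

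A model with 1 mean per group and 9 residual degrees of freedom was fitted to the 13 arrays with limma 3.58.1 in R 4.3.3. The 7 contrasts were each adjusted by the Benjamini-Hochberg method over all genes, with a threshold of 0.05. Values are log2 differences ± SE. The fit was tested on simulated data. Tables were handled in Python 3.11.15 with pandas 2.3.3.

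Deviations from the group means were correlated between arrays over the genes above the median level, without a set of sex chromosome genes. Same-numbered arrays of 1 treatment had r of 0.115 to 0.289 in 4 pairs, all alike in Xist state. Differently numbered arrays of 1 treatment had r of -0.253 to 0.18 in 17 pairs, so that the ranges overlap. The main fit, which gave the SEs, intervals and adjusted p-values above unless an alternative is named, took all arrays as unpaired. Same-numbered arrays were linked only in the alternatives with a replicate block. That link comes from the data and the numbers in the titles. Across treatments r was -0.13 to 0.40 in 5 same-numbered pairs and -0.37 to 0.207 in 37 differently numbered pairs. Alternatives were a replicate block, probe set and gene filters, scaling, array weights, the variance model, the arrays fitted, Xist state and leaving out each array.

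The genes, lists and tests were chosen with earlier results of these data known. The 10 genes are all named; from the wider lists, genes past the threshold or with the smallest p are named.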

Additional observations from a re-analysis of the deposited data

How the results depend on the processing

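The 70 differences of the 10 genes were recomputed under 25 alternatives, 1720 values in all, of which 1631 kept their direction and their side of the threshold and 78, in 26 differences, changed sign, all of these at a size of at most 0.17 in the report. Part of this was fixed beforehand. Leaving out an array outside the groups compared cannot change a log2 difference, and all but 1 of the 70 had no call to lose. Each gene had 1 probe set, so that averaging probe sets left all 10 values as they were. Of the counts, the 1 call between MDP and PBS CD103 high cells became 0 with all probe sets and with only the arrays compared, and was 0 to 1 when single arrays were left out. It was also 0 with low Xist alone and with high Xist alone, fits that called 0 of 22180 genes in every contrast and so say nothing about the call. Without genes in the olfactory range CD103 high minus low gave 1 call in MDP mice (Msmo1) and 1 in the average (Hmgcs1), as did the average with variance trend and robust fit. The replicate block within a treatment changed no call of the 10 genes, with Msmo1 at -0.44 (adjusted p 0.0222) and 1 call there.

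Values that changed sign, by setting, were these. With Xist state as covariate: Insig1 -0.0039 in the interaction. With array weights: Fdps -0.0038 in MDP minus PBS in CD103 low cells and Sc5d -0.00084 and Insig1 -0.037 in the interaction. With arrays centred on their medians: Srebf2 0.0043 in CD103 high minus low in PBS mice and Msmo1 0.0024 in MDP minus PBS in CD103 low cells. With high Xist alone, a choice made after seeing the data: Sqle 0.048 and Sc5d 0.16 in CD103 high minus low in MDP mice, Msmo1 -0.00063 in CD103 high minus low in PBS mice, Hmgcs1 0.066 and Srebf2 0.034 in MDP minus PBS in CD103 high cells, Fdps -0.11 and Hmgcs1 -0.11 in MDP minus PBS in CD103 low cells, Sc5d 0.080 in the CD103 average, Hmgcs1 -0.022 in the MDP average and Sqle 0.14 and Hmgcs1 0.18 in the interaction. With low Xist alone: Srebf2 0.073 in CD103 high minus low in PBS mice, Msmo1 0.038 and Sc5d 0.0063 in MDP minus PBS in CD103 low cells, Srebf2 -0.099 in the MDP average and Fdps -0.14, Sc5d -0.023 and Insig1 -0.075 in the interaction. With the replicate block over treatments: Msmo1 0.0023 in MDP minus PBS in CD103 low cells and Insig1 -0.00091 in the interaction. 

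Ranges over the 13 fits without 1 array, where the sign changed, were: Sc5d -0.10 to 0.021 in CD103 high minus low in MDP mice, Sqle -0.10 to 0.024, Sc5d -0.13 to 0.013 and Srebf2 -0.049 to 0.024 in CD103 high minus low in PBS mice, Fdps -0.011 to 0.21, Hmgcs1 -0.064 to 0.030 and Sc5d -0.12 to 0.019 in MDP minus PBS in CD103 high cells, Msmo1 -0.070 to 0.033, Fdft1 -0.19 to 0.0022, Fdps -0.047 to 0.10, Lss -0.24 to 0.088 and Hmgcs1 -0.061 to 0.21 in MDP minus PBS in CD103 low cells, Hmgcs1 -0.044 to 0.090 and Srebf2 -0.0083 to 0.034 in the MDP average and Fdps -0.059 to 0.16, Cyp51 -0.039 to 0.093, Lss -0.22 to 0.11, Hmgcs1 -0.24 to 0.032, Sc5d -0.047 to 0.097 and Insig1 -0.045 to 0.043 in the interaction. The cause of these changes was not tested. With 3 or 4 arrays a group, the median SE of 0.0754 to 0.151 limits what could be called.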

Other observations

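Markers of other spleen and tumour cells were mostly within the olfactory range: 8 of 9 measured neutrophil genes, 7 of 10 B cell genes, 7 of 9 T cell genes, 5 of 7 natural killer cell genes, 4 of 5 erythroid genes and 4 of 7 B16 melanoma genes. Lists of related cells were partly above it, with 3 of 12 plasmacytoid dendritic cell genes, 3 of 13 cDC2 genes and 4 of 14 monocyte and macrophage genes within the range. Single genes of these lists moved with the groups compared above: between MDP and PBS CD103 high cells, by limma, the plasmacytoid genes Cd300c (-0.96) and Pacsin1 (-0.77) and the B cell list's Fcrla (-0.72) fell. In that comparison 9 of 12 plasmacytoid and 7 of 10 B cell genes lay below 0, and 53.7% of all genes. Sirpa of the cDC2 list was lower in CD103 high than low cells of MDP mice (limma adjusted p 0.0308). There 9 of 13 cDC2 genes lay below 0, and 54.3% of all genes, of which 0.0496% passed as lower. In PBS mice 2 plasmacytoid genes, Pacsin1 among them (limma adjusted p 0.0294), and Fcrla (0.0121) were higher in CD103 high than low cells. The lists as a whole did not move that way, with 5 of 12 plasmacytoid and 6 of 10 B cell genes below 0. Of all genes 51.1% lay below 0 there, and 0.0451% passed as higher. The part of these marker genes in the values of the cholesterol genes was not tested.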
